A study of Mus musculus with 4 samples.

Results

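Unstimulated bone marrow neutrophils of miR-125a knockout mice were compared with those of wild-type mice, across all genes that the arrays measured. The comparison used 2 of the 4 arrays of the study: the array titled BM PMN_KO_LPS 0h (genotype miR-125a-/-) and the array titled BM PMN_WT_LPS 0h (miR-125a+/+). Both genotypes were C57BL/6 mice of 8 weeks, and the cells were isolated from marrow with a magnetic bead kit and kept in medium with serum. RNA from 3 experiments was pooled for each array, so each group is 1 pool, and neither the number of mice nor the way the allele was made is given in the sources used here. Their titles read 0h, while the source label says only that they had no LPS (lipopolysaccharide, a bacterial cell wall component sensed by Toll-like receptor 4), so how long they were cultured is not settled. The other arrays held cells of the same genotypes after 3 h with LPS, and that pair is given beside the unstimulated pair because it shares no array with it. With 1 array per group, no difference has a replicate check and no test could be run.

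A microRNA is a short RNA that guides Argonaute proteins to messenger RNAs through its seed, bases 2 to 8, and lowers their stability or translation. miR-125a is made from a cluster that also yields miR-99b and let-7e, inside the gene Spaca6, and it shares its seed with miR-125b. The family is known for roles in blood cell formation and in the control of NF-kB, the transcription factor of inflammatory genes, through targets such as Tnfaip3 (the ubiquitin-editing enzyme A20). Neutrophils store antimicrobial proteins in granules that are filled while the cells mature in the marrow. The mature sequences below, from RefSeq on GRCm38.p6, are those of the deleted microRNA at chr17:17830817-17830840 (5p) and chr17:17830855-17830876 (3p), of 2 microRNAs from other loci with the same 5p seed, and of the neighbours in the cluster. Capitals mark the seed, and each line runs 5′ to 3′.

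mmu-miR-125a-5p: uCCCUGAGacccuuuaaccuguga
mmu-miR-125b-5p: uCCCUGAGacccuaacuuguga
mmu-miR-351-5p: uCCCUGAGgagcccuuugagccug
mmu-miR-125a-3p: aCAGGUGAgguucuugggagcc
mmu-miR-99b-5p: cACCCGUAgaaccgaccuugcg
mmu-let-7e-5p: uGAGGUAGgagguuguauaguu

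The first 3 lines share the seed CCCUGAG, whose match in a target's DNA strand reads CTCAGGG. The 3p arm and the cluster neighbours each have another seed. None of these microRNAs was measured on the arrays. The 3 probe sets of the host gene Spaca6 reached a log2 signal of at most 6.24 on any array, under the floor given next, so the arrays give no check of the genotype.

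The values are log2 signals of Affymetrix probe sets made with MAS5. Values under the 60th percentile of all values (log2 6.80, a signal of 111) were set to that floor, because dim probe sets scatter widely. Of 18193 named genes, 9401 exceeded the floor on at least 1 unstimulated array and are called measured, and 8793 exceeded it on both. A gene was called where its floored signals differed at least 2-fold, and where 1 array was at the floor the printed fold is the least it can be ("at least"), called a bound here.

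Most transcripts of unstimulated neutrophils stood at nearly the same level on the arrays of both genotypes. The median log2 difference, knockout minus wild type, was 0.004 over the measured genes, and 91.0% of them differed by less than 0.5. The arrays had been scaled to a common target, which holds this median near 0 and would hide a shift shared by most genes. Under scaling on poly-A control probe sets the median was 0.09. In all, 33 of 9401 genes (0.351%) were called higher in knockout cells and 62 (0.66%) lower, together 95 genes or 1.01%. Of these, 3 of the higher and 17 of the lower calls were bounds. When the arrays were scaled on their poly-A control probe sets instead, the split was 69 higher and 56 lower, and a floor set at the 75th percentile left 11 and 17 of these calls. No higher gene and 5 of the lower genes reached 4-fold. Calls lay among the dimmer signals: 1.74% of the 2010 genes with a mean log2 signal under 8 were called, 1.56% of the 3329 genes from 8 to 10, 0.286% of the 2801 genes from 10 to 12, and 0 of the 1261 genes above 12. The interquartile range of the differences narrowed along the same steps, from 0.47 to 0.39, 0.27 and 0.19.

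**Figure D1:**
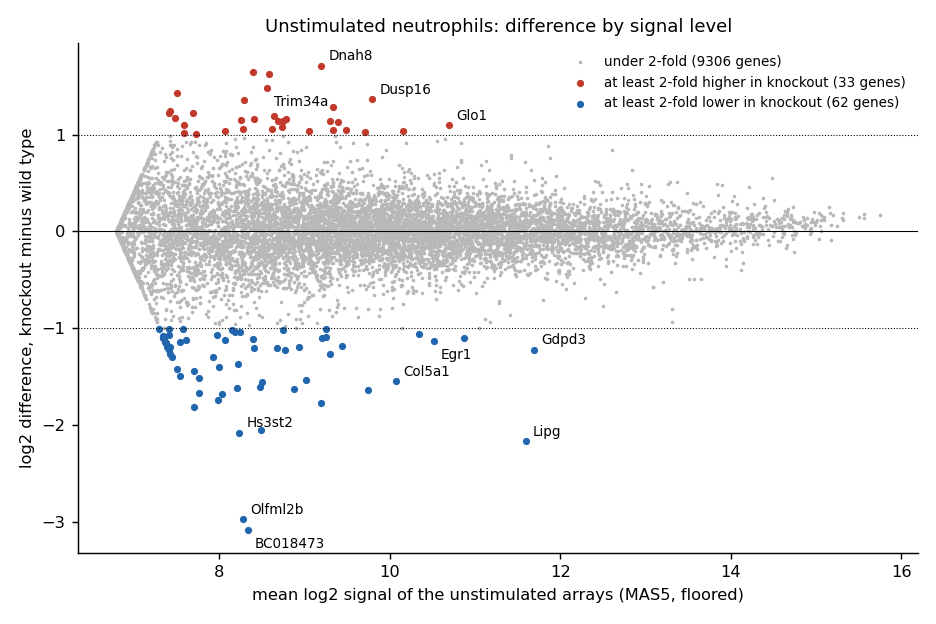
Each point is 1 of 9401 measured genes, with the mean log2 signal of both unstimulated arrays on the x axis and the log2 difference, knockout minus wild type, on the y axis; dotted lines mark 2-fold. The 62 lower genes (blue) reach further from 0 than the 33 higher genes (red), and no gene with a mean signal above 12 is called.

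The lowest differences were those of an uncharacterised transcript, an extracellular matrix gene and a lipase. BC018473, which the rule for named genes passes over in its first part because its symbol is a clone accession, had a log2 signal of 9.88 in wild-type and was at the floor in knockout cells, at least 8.45-fold lower. Olfml2b, which encodes an olfactomedin-domain protein of the extracellular matrix, stood at 9.77 in wild-type and at the floor in knockout cells, at least 7.85-fold lower. Lipg, the endothelial lipase that acts on lipoprotein phospholipids, had 12.68 in wild-type and 10.51 in knockout cells, 4.49-fold lower. For Lipg both arrays lay far above the floor, so its fold is a measured value and not a bound. Hs3st2, a heparan sulfate sulfotransferase, had 9.27 and 7.19 (4.22-fold lower), with the knockout array close to the floor. The uncharacterised transcript 9030619P08Rik, chosen after its values were seen, had 9.52 and 7.47 (4.14-fold lower).

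Signalling and structural genes followed among the lower calls. Dock9, an exchange factor that activates the GTPase Cdc42, had a log2 signal of 10.08 in wild-type and 8.31 in knockout cells (3.42-fold lower). Fas, the death receptor that triggers caspase-8, had 8.87 and 7.19 (3.21-fold lower), and Zap70, the kinase of the T cell receptor, 9.28 and 7.73 (2.94-fold lower). These last values are dim on the knockout array. Adat2, a subunit of the enzyme that converts adenosine to inosine in transfer RNA, had 10.56 and 8.93 (3.10-fold lower), and Zdhhc12, a palmitoyltransferase, 9.69 and 8.07 (3.08-fold lower). Dsp, desmoplakin, which anchors filaments at cell junctions, had 9.28 and 7.67 (3.05-fold lower), and Col5a1, a chain of type V collagen, 10.85 and 9.30 (2.93-fold lower). Tbrg3 had 8.60 and 6.93 (3.19-fold lower). Of the bounds, Dubr, a long noncoding RNA, was at least 3.52-fold and Casp14, a caspase of the epidermis, at least 2.81-fold lower.

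Among genes with a symbol the largest differences were smaller on the higher side. The median log2 differences of the called genes were close in size, 1.15 for the higher and -1.20 for the lower genes. Dnah8, a heavy chain of axonemal dynein, had a log2 signal of 8.34 in wild-type and 10.05 in knockout cells, 3.27-fold higher. A variable segment of the immunoglobulin kappa light chain had 7.57 and 9.22 (3.13-fold higher), and Aunip, a partner of the mitotic kinase Aurora A, 7.77 and 9.39 (3.08-fold higher). These were the 3 genes above 3-fold on the higher side. Trim34a, of the tripartite motif family, had 7.82 and 9.30 (2.79-fold higher), and Dusp16, which dephosphorylates JNK and p38 kinases, 9.11 and 10.48 (2.58-fold higher). Acvrl1, a type I receptor for BMP ligands, had 8.69 and 9.98 (2.44-fold higher), and Lgalsl, a galectin-like protein, 7.61 and 8.96 (2.56-fold higher). Gstm3, a glutathione S-transferase, stood at 1.23, Taf4b, a subunit of the general factor TFIID, at 1.18 and Kcnj11, the pore of a potassium channel closed by ATP, at 1.16 (log2 differences). The bounds were those of Apoc2, a cofactor of lipoprotein lipase (at least 2.69-fold), Slc1a5, a glutamine transporter (at least 2.38-fold), and Ptprcap, a partner of the phosphatase CD45 (at least 2.34-fold).

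Further probe sets of a gene read the same RNA pool through other probes, and so bear on the probes and not on the genotype. Of the 95 called genes, 29 had further probe sets above the floor, and 9 of these had at least 1 that was called in the same direction. In all 10 of 44 further probe sets were called in that direction and 1 in the opposite one. For the higher genes 15 of 20 further probe sets had the same sign (median log2 difference 0.16), and for the lower genes 19 of 24 (median -0.67). Of 3943 genes with 2 or more probe sets above the floor on both arrays, 6 were at least 2-fold in the same direction in every one. These were Lipg (-2.17 and -2.00), Dock9 (-1.77 and -1.52), Col5a1 (-1.55 and -1.73), Dsp (-1.61 and -1.28), Lgalsl (1.35 and 1.04) and Hsph1, the chaperone Hsp105 (1.05 and 1.37). For other genes the probe sets disagreed. Dusp16 had a second probe set at -0.27 against 1.37, Trim34a one at -0.65 against 1.48, and Ppp5c, a serine/threonine phosphatase, 2 others at 0.10 and -0.06 against 1.15. Without the probe sets marked as shared between transcripts, the calls of Acvrl1 (0.65), Dock9 (-0.97), Trim12a (0.13), Slc9a3r2 (0.19) and Riok2 (-0.10) were lost too. In that setting 66 of the 95 calls stayed, 6 fell short of 2-fold, 3 changed sign and 20 genes were no longer measured. BC018473, Hs3st2, Dnah8, Gdpd3 and Zfp593 were among those no longer measured, so their calls rest on shared probe sets alone. The transcript 1500011B03Rik had -1.74 in its brightest probe set and 1.03 in another.

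The LPS arrays gave each genotype difference a second reading in other RNA pools, whose relation to the unstimulated pools the sources used here do not give. Of the 33 higher genes, 10 (30.3%) were called higher in the LPS pair too, and of the 62 lower genes, 19 (30.6%) were called lower. In the LPS pair 57 of 9262 measured genes were higher (0.615%) and 58 lower (0.626%), 115 in all (1.24%), so the shared genes made up 17.5% and 32.8% of its lists. The sign was the same for 70 of the 95 genes, and 10 lay at the floor on both LPS arrays. Among the 47 called genes whose brighter unstimulated array reached a log2 signal of 9, 23 (48.9%) were called again, against 6 of the 48 dimmer ones (12.5%). Across the 8798 genes measured in both pairs the Pearson coefficient of the differences was 0.28 and the Spearman coefficient 0.20, as a description over genes, which do not replicate each other.

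**Figure D2:**
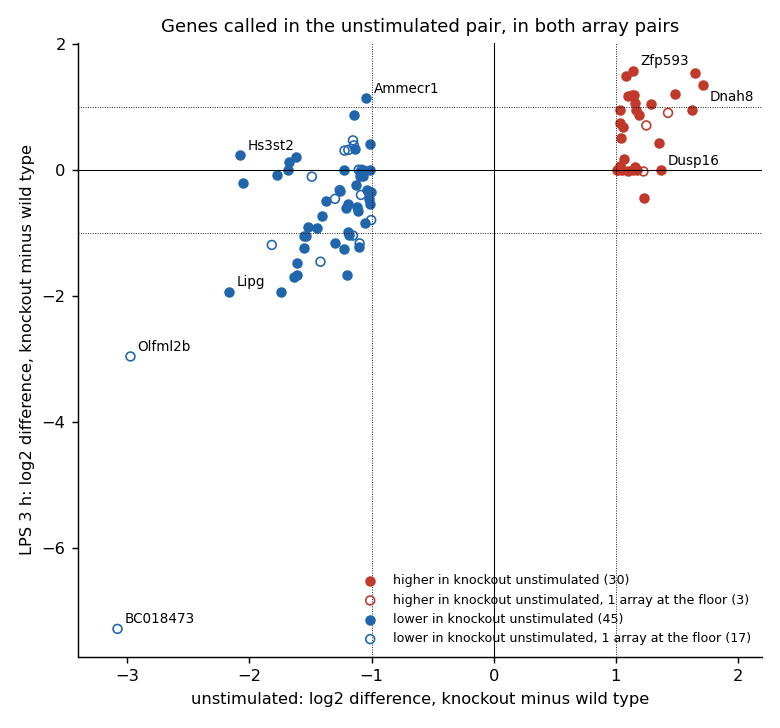
For each of the 95 genes called in unstimulated cells, the x axis gives the unstimulated and the y axis the LPS log2 difference, knockout minus wild type; open circles are bounds with 1 unstimulated array at the floor, and dotted lines mark 2-fold. Most points keep their side of 0, while Hs3st2 and Dusp16 lie near 0 after LPS and Ammecr1 lies on opposite sides.

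The lower genes called in both pairs are given here by their levels on all 4 arrays. That choice favours genes whose genotypes separate on the 4 arrays, so the separation is no further support. Lipg had log2 signals of 12.68 and 11.40 in wild-type cells without and with LPS, and of 10.51 and 9.46 in knockout cells; both knockout arrays lay below both wild-type arrays. Olfml2b had 9.77 and 9.76 in wild-type cells and was at the floor on both knockout arrays. Dsp had 9.28 and 9.30 in wild-type and 7.67 and 7.64 in knockout cells. Adat2 had 10.56 and 9.87 against 8.93 and 8.17, and Col5a1 10.85 and 11.03 against 9.30 and 9.79. Gdpd3, a phosphodiesterase that releases lysophosphatidic acid, had 12.31 and 13.17 in wild-type and 11.08 and 11.91 in knockout cells (differences of -1.22 and -1.26). Gbp2b, an interferon-inducible GTPase, had 8.22 and 9.22 in wild-type cells against the floor and 7.76 in knockout cells.

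BC018473 stood apart within this set. Its signal in wild-type cells was 9.88 without and 14.08 with LPS, and it was at the floor on both knockout arrays, so that its log2 difference was at most -3.08 in unstimulated cells and at most -7.29 after LPS. Among the higher genes, Dnah8 had 8.34 and 7.42 in wild-type and 10.05 and 8.76 in knockout cells. The kappa variable segment had 7.57 and 7.05 against 9.22 and 8.58, and Glo1, which detoxifies methylglyoxal, 10.15 and 9.96 against 11.25 and 11.14. For all 3 of these, which were also chosen as called in both pairs, the wild-type arrays lay below the knockout arrays. Zfp593, a zinc-finger protein, had log2 differences of 1.14 and 1.57, Ppp5c 1.15 and 1.19, Plekhg1 1.08 and 1.49, Slc9a3r2, a scaffold protein of membrane transporters, 1.16 and 1.06, and Acvrl1 1.29 and 1.04.

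**Figure D3:**
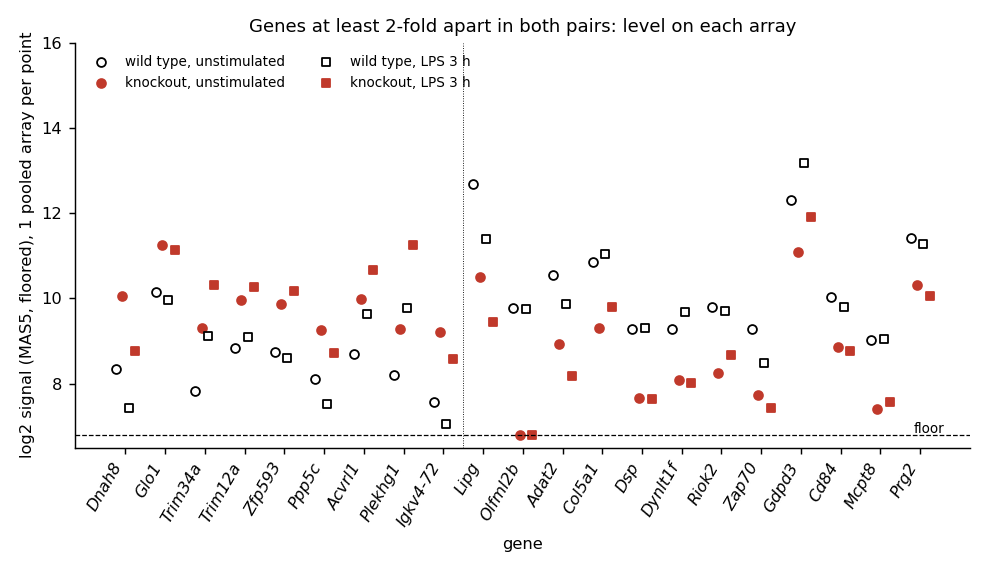
The y axis gives the log2 signal on each of the 4 arrays (1 pooled array per point, dashed line: floor) for the genes on the x axis, which were called in the same direction in both pairs; circles are unstimulated, squares LPS, filled symbols knockout. Left of the dotted line the knockout symbol is higher in each pair, right of it lower, and Olfml2b is at the floor in both knockout arrays.

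Other calls were seen in unstimulated cells and not in the LPS pair. Fas had a log2 signal of 12.59 on both LPS arrays, against 8.87 and 7.19 in unstimulated cells. Dusp16 likewise had 13.50 and 13.49 with LPS, and Hs3st2 had 7.91 in wild-type and 8.14 in knockout cells. The LPS differences of these 3 genes were 0.00, -0.01 and 0.23. Zdhhc12 had 9.27 and 9.48 with LPS, and Dock9 was close to or at the floor on both LPS arrays. A difference between the genotype effects of both pairs was not tested.

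The called genes were next placed in the genome, starting from Mir125a. Gene order and chromosomes were taken from the GRCm38.p6 reference gene table, which placed all 95 called genes. Chromosome 17, which carries Mir125a, had 9 of 476 measured genes called (1.89%, against 1.01% over all genes), 4 higher and 5 lower. Chromosome 7 had 12 of 689 (1.74%) and chromosome 10 had 7 of 458 (1.53%), while chromosome 8 had 0 of 510. Of the 29 genes called in both pairs, 5 lie on chromosome 17, namely Dynlt1f (a dynein light chain), Riok2, Slc9a3r2, Glo1 and Dnah8. Chromosome 17 held 476 of the 9375 measured genes with a place in the gene order. Chromosome 7 had 4 of the 29.

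Riok2, a kinase of ribosomal subunit maturation, is the first measured gene on one side of Mir125a, and it was called. It had log2 signals of 9.79 in wild-type and 8.25 in knockout cells, and of 9.71 and 8.67 with LPS. Its further probe sets had unstimulated differences of -1.13 and -0.10. On the other side the nearest measured gene, Fpr2, a formyl peptide receptor of neutrophils, had 14.78 and 14.93 (log2 difference 0.15). Among the 25 nearest measured genes on each side, 2 of 50 (4%) were called, Riok2 and the zinc-finger gene Zfp995 (9.38 and 8.16), and the differences of the 50 ran from -1.54 to 0.81 with a median of -0.05. Zfp52 stood at -0.88 and Zfp943 at -0.80, both short of 2-fold. Farther out, Dynlt1f (-1.20) and Tfb1m, a mitochondrial ribosomal RNA methyltransferase (-1.37), were called on the side of Riok2. On the side of Fpr2, Slc9a3r2 (1.16), Wdr90 (1.04), Rab44 (-1.06), Glo1 (1.10) and Dnah8 (1.71) were called, at places 43, 76, 124, 138 and 140 in the order of measured genes. Zfp995, Tfb1m, Wdr90 and Rab44 were named after their values were seen. Near-identical copies of Dynlt1f and of the zinc-finger genes exist, and the probes may detect several of them.

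**Figure D4:**
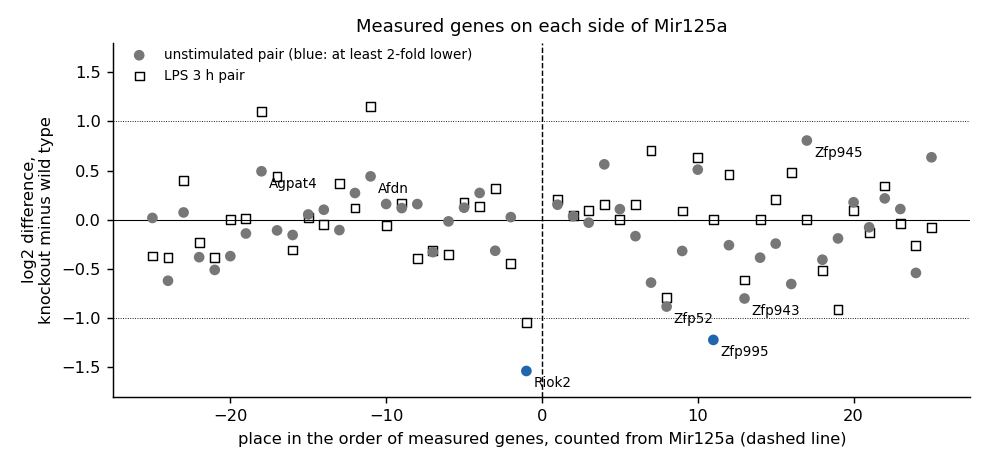
The x axis gives the place of each of the 25 nearest measured genes on each side of Mir125a (dashed line), counted in genes, and the y axis the log2 difference, knockout minus wild type, in the unstimulated (dots) and LPS pair (squares). Riok2, next to Mir125a, and Zfp995 are the blue dots past 2-fold.

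Elsewhere 8 runs of called genes were found, meaning called genes within 5 measured genes of each other, with 18 genes in all. Glo1 and Dnah8 formed such a pair on chromosome 17, with 1 uncalled measured gene between them (1700097N02Rik at 0.23). On chromosome 7 Trim34a (1.48) and Trim12a (1.13) stood on either side of Trim5, which had 0.80 unstimulated and 1.73 after LPS, so that all 3 TRIM genes were called in the LPS pair. Slc1a5 (1.25, a bound), Ppp5c (1.15) and Sympk, a scaffold of messenger RNA polyadenylation (1.04), formed a run of 10 measured genes on chromosome 7. Sympk had a further probe set at -0.40 that was at the floor in knockout cells. On chromosome 4 Zfp593 (1.14) and Aunip (1.62) were higher and Ubxn11 (-1.30, a bound) lower within 9 genes. On chromosome 10 Adat2 (-1.63) and Plagl1 (-1.14, a bound) were lower, and the 4 genes between them had differences from -0.57 to -0.12. On chromosome 1 no run was found, but 3 of its 4 calls, Zap70, Olfml2b and Cd84 (a receptor of the SLAM family, 10.04 and 8.85), were lower in both pairs. Only the pair of Glo1 and Dnah8 and that of Trim34a and Trim12a were called together in the LPS pair too. Adat2, Ppp5c and Zfp593 were called there in the same direction, but not the other called genes of their runs. In the runs that paired Rad51c with Epx, Cldn13 with Bud23, and Xpa with Hemgn, no called gene was called again.

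Markers were used to check the cell type. All 13 matched neutrophil markers were above the floor on every array, among them S100a8, a subunit of calprotectin (15.67 in wild-type and 15.84 in knockout cells), Ltf, lactoferrin (14.89 and 15.02), and Cxcr2, the receptor for neutrophil-attracting chemokines (12.09 and 12.25). None was called, where 1.01% of all measured genes and 0 of the 1261 with a mean log2 signal above 12 were. The median log2 difference of the markers was 0.15, against 0.004 over all measured genes. That median was 0.00 under quantile normalization, so no direction is given for it. The summed signal of these markers was 343680 in wild-type and 376516 in knockout cells.

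Markers of eosinophils, basophils and mast cells had differences below 0. Of the 12 matched markers 5 were above the floor on both unstimulated arrays, and 3 of these were called lower and 0 higher, with a median log2 difference of -1.10. Over all measured genes 0.66% were called lower. A further marker, Cpa3, passed the filter only through the wild-type array, so the sign of its difference was fixed by the filter. With it the median was -1.09, and -0.34 when the floor was set at the 50th percentile. Mcpt8, a protease of basophils, had log2 signals of 9.01 in wild-type and 7.40 in knockout cells, and of 9.05 and 7.57 with LPS. Epx, eosinophil peroxidase, had 8.43 and 6.99, and 7.73 and the floor with LPS. Prg2, the major basic protein of eosinophil granules, had 11.42 and 10.32, and 11.29 and 10.06 with LPS. For each of these the knockout array was the lower one in both pairs. Cpa3, a carboxypeptidase of mast cells and basophils, had 7.88 in wild-type cells and was at the floor on the other arrays (at least 2.12-fold lower). Siglecf, a surface lectin of eosinophils, differed by -0.33 and Kit, the stem cell factor receptor, by -0.31. Rnase2a, an eosinophil ribonuclease outside the list and chosen after its values were seen, had 8.08 and 7.07.

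The summed signal of the 12 matched markers of these cells was 4812 in wild-type and 2453 in knockout cells, and 4171 and 1992 with LPS. Prg2 alone made up most of each sum, with signals of 2734 and 1274, and 2499 and 1069 with LPS. Prg3, Il5ra, Ccr3, Fcer1a, Ms4a2 and Cma1 were under the floor on both unstimulated arrays, none of them listed at 0. Arrays of pooled RNA cannot tell fewer cells of a type from less RNA per cell.

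Erythroid markers had differences above 0. Of the 9 matched markers 6 were above the floor on both arrays, all of them above 0, with a median of 0.65, while 50.8% of all genes above the floor on both arrays had a difference above 0. Epor, the erythropoietin receptor, passed only through the knockout array, which fixed its sign, and with it the median was 0.58. The marker that was called, against 0.351% of all measured genes called higher, was Car1, a carbonic anhydrase of red cell precursors, with 8.81 in wild-type and 9.86 in knockout cells (2.07-fold higher). Slc4a1, the anion exchanger of red cells, had 7.76 and 8.63, Car2 10.48 and 11.19, and Klf1, the erythroid transcription factor, 7.63 and 7.85, while Rhd, a blood group antigen, differed by 0.58. Hemgn, a nuclear protein of blood cell precursors outside the list and placed here after its values were seen, had 8.18 and 9.31. With LPS Car1, Slc4a1, Rhd, Klf1 and Hemgn were at the floor in both genotypes, so the LPS pair gives no second reading of them. The summed signal of the 9 matched markers was 2868 in wild-type and 4807 in knockout cells. With LPS it was 1255 and 1233, and the 2 markers measured in that pair had a median of 0.07. Hba-a1 and Alas2 were under the floor on both arrays. The part of other cell types in the differences of other genes was not tested.

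Immunoglobulin genes were read beside plasma cell markers, of which 0 of 9 measured were called (median 0.14). Ighg3, an immunoglobulin heavy chain constant gene outside the list and chosen after its values were seen, had 9.20 and 10.23 (2.04-fold higher), and 9.35 and 10.30 with LPS. Beside it and the kappa variable segment, Jchain, the joining chain of secreted immunoglobulins, had a log2 difference of 0.32 in unstimulated cells and 0.44 with LPS, and Ighm -0.06 and -0.17. The summed signal of the plasma cell markers was 61053 and 66886. Monocyte and macrophage markers had 0 of 7 called (median 0.02) with summed signals of 24620 and 24924, and 0 of 6 markers of dendritic cells and MHC class II (0.04), 0 of 4 platelet (-0.03), 0 of 4 B cell (-0.11), 0 of 5 stem and progenitor (-0.18) and 0 of 3 stroma and endothelium markers (0.07) were called. Over all measured genes 1.01% were called, so few or no calls would fall in marker lists of these sizes. Each of these lists includes members that passed the filter through 1 array only, which fixed their sign. Above the floor on both arrays, 3 platelet markers had a median of 0.19, and 1 B cell marker remained (-0.38). Cd3d, the only measured T and NK cell marker, differed by -0.28.

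Heat shock genes, which encode chaperones that refold proteins, had a median log2 difference of 0.46. Of 11 measured, 1 was called higher (0.351% over all measured genes) and 10 differed by more than 0 (50.9% of all measured genes). Such a count of signs was not particular to them. Differences above 0 were also seen in 10 of 11 housekeeping, 15 of 17 ribosomal protein and 13 of 13 neutrophil marker genes. Among interferon-stimulated genes, 7 of 25 were above 0. Hsph1, a nucleotide exchange factor for Hsp70, had 8.97 in wild-type and 10.01 in knockout cells (2.06-fold higher). Hspa1b, an inducible Hsp70, had 11.41 and 12.30 (0.88), Hspe1, the mitochondrial co-chaperonin, differed by 0.68, Hspa5, the chaperone of the endoplasmic reticulum, by 0.55, and Dnajb1 by 0.00. Over the 8 processing alternatives the median ran from 0.34 to 0.55. In the LPS pair it was 0.12, with Hspa1b at -0.73.

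Immediate-early genes and chemokines had medians below 0. Of 22 measured immediate-early and AP-1 factors 1 was called lower, against 0.66% of all measured genes, and 0 higher. Their median was -0.29, and -0.09 in the LPS pair, and 5 of them differed by more than 0, 1 of which (Nr4a3) passed only through the knockout array. Egr1, a zinc-finger transcription factor induced within minutes, had 11.09 in wild-type and 9.95 in knockout cells (2.19-fold lower), Egr3 differed by -0.73, Fos and Jun each by -0.49 and Nr4a2 by 0.78. Of 4 neutrophil-attracting chemokine genes (median -0.61) Cxcl1 was called (8.11 and 6.97), with a further probe set at 0.08 that was at the floor in wild-type cells. Cxcl2 had 12.88 and 12.12 (-0.76) and Cxcl3 differed by -0.45. In the LPS pair Cxcl1 had 8.37 in wild-type and 9.24 in knockout cells, and Egr1 8.80 and 9.12, both higher in knockout cells. The chemokine list as a whole had an LPS median of -0.42, with 1 of 4 called lower, Cxcl3 (10.01 in wild-type and 8.80 in knockout cells, -1.20), against 0.626% of all genes. Of 7 CC and other chemokines none was called, against 1.01% of all measured genes, and the median was -0.32. Ccl2 stood at -0.56 and Ccl3 at -0.54, and in the LPS pair the median of this list was 0.02.

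No interferon-stimulated gene of 25 was called, and their median was -0.19, with Oasl1 at -0.85, Ifit1 at -0.59 and Oasl2 at 0.55. In the LPS pair the median was 0.12. Inflammatory cytokines had 0 of 14 called (median -0.04), with Il1b at -0.23 and Tnfsf13b, the B cell survival factor BAFF, at -0.67. NF-kB subunits and feedback regulators had 0 of 17 called (median 0.05), Nfkbia differing by 0.10 and Nfkbiz by 0.02. Toll-like receptor signalling genes had 0 of 18 called (median -0.07), with Tlr4 at -0.12 and Cd14 at -0.20. Over all measured genes 1.01% were called, so the absence of calls in these 4 lists says little.

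Genes reported as targets of the miR-125 family were followed as 3 lists. Of 17 measured targets in immune signalling 0 were called and the median was 0.02. Tnfaip3 had log2 signals of 10.82 in wild-type and 10.95 in knockout cells (0.13), Stat3, a transducer of cytokine signals, differed by -0.29, Klf13, a regulator of the chemokine Ccl5, by -0.40, and Traf6, the ubiquitin ligase below Toll-like receptors, by 0.08. Prdm1, the repressor Blimp-1, had 7.21 and 8.14 (0.93, short of 2-fold). Of 16 targets in survival and proliferation 1 was called, and it was lower, against 0.66% of all measured genes called lower. This was Plagl1, a zinc-finger protein that halts the cell cycle. It had 7.94 in wild-type cells and was at the floor in knockout cells (at least 2.21-fold lower), while in the LPS pair it differed by 0.39. Plagl1 passed the filter only through the wild-type array, so the sign of its difference was fixed by the filter. Bak1, a pore-forming cell death protein, differed by -0.20, Mcl1, a survival protein, by -0.17 and E2f3, a cell cycle factor, by 0.47, and the list median was 0.04. Of 14 targets in differentiation and other roles 0 were called (median 0.01), with the RNA-binding protein Lin28a at 0.00 and Zbtb7a, a lineage repressor, at 0.58. No measured target in these lists was called higher, where 0.351% of all measured genes were. At that share few or no calls would fall in lists of this size, so this count says little.

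**Figure D5:**
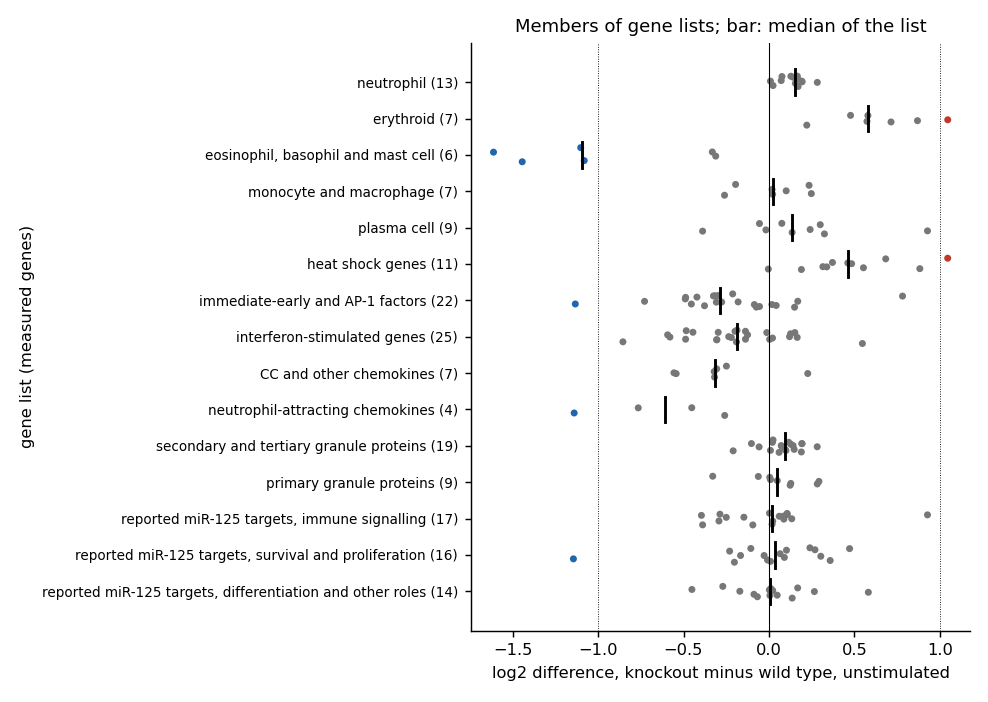
Each dot is a measured member of the gene list named on the y axis (number of measured members in brackets), the x axis gives its unstimulated log2 difference, knockout minus wild type, dotted lines mark 2-fold, and the bar is the list median, members above the floor on 1 array included. The eosinophil, basophil and mast cell list has a median of -1.09 and the erythroid list of 0.58, while the target lists of the miR-125 family lie near 0.

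Lists of neutrophil effector functions had medians near 0 and no calls. At the share of 1.01% over all measured genes, few or no calls would fall in lists of these sizes, so the counts below say little. Of the 1261 genes with a mean log2 signal above 12, 0 were called. Of 9 primary granule genes 0 were called (median 0.05), with Mpo, myeloperoxidase, at 0.01 and Elane, neutrophil elastase, at 0.28. Of 19 secondary and tertiary granule genes 0 were called (0.09), with Camp, the cathelicidin, at 0.19 and Mmp9, gelatinase B, at 0.08. NADPH oxidase and reactive oxygen genes had 0 of 15 called (0.09), Cat, catalase, standing at -0.48 and the cystine transporter Slc7a11 at 0.89. Chemoattractant receptor and adhesion genes had 0 of 19 called (0.07), JAK-STAT and G-CSF receptor genes 0 of 18 (-0.01) and mature neutrophil genes 0 of 19 (0.12). Apoptosis regulators had 1 of 19 called, Fas, against 0.66% of all measured genes called lower. Their median was -0.05, with the pro-death gene Bcl2l11 at 0.46. Granulocyte lineage transcription factors had 0 of 14 called (0.03), cell cycle genes 0 of 24 (0.08), components of the microRNA pathway 0 of 14 (0.01), ribosomal protein genes 0 of 17 (0.12) and housekeeping genes 0 of 11 (0.12). In all, 11 of 442 measured list genes (2.49%) were called, against 1.01% of all genes. The lists were chosen with earlier results of these data known, so the higher share is no result about the lists. Cpa3 and Plagl1 among these calls passed the filter only through the wild-type array.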

How the data were processed

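Members and gene lists were chosen with earlier results of these data known. Per the submitters' processing notes the deposited values came from MAS5, and the values show a log2 scale. The deposited table holds 1 log2 signal for each probe set on each array. The MAS5 version is not stated in the labels. The unlogged values have a trimmed mean of 500.003 or 500.004 on each array, so the arrays had been scaled to a common target, which would hide a shift shared by most genes. Of 45101 probe sets, 34945 had 1 gene symbol in the platform annotation, 932 several and 9211 none; 34741 had an Entrez identifier in the GRCm38.p6 gene table, which changed 0 symbols. The probe set with the highest mean over the 4 arrays stood for a gene. The reference table served only for names, gene order and chromosomes. Arrays carry no read depth, and their number limits the precision. No p-value was computed.

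Named were the 10 highest and 10 lowest called differences above the floor on both arrays, the 3 largest bounds in each direction, genes whose probe sets were all called, up to 10 in each direction called in both pairs, called list members with some members of each list, runs of neighbouring genes, and genes called in opposite directions. Uncharacterised symbols (1 higher and 6 lower) were passed over in the first parts. Of 645 different list symbols 563 were matched and 442 measured. Alternatives were quantile normalization, median scaling, scaling on 24 poly-A control probe sets, floors at the 50th and 75th percentile or none, the mean over probe sets, and leaving out probe sets marked as shared. Counts over list members above the floor on both unstimulated arrays were added after seeing the data. The difference and call steps were tested on simulated data. Python 3.11.15, numpy 2.4.6, pandas 2.3.3 and matplotlib 3.10.9 were used.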

Additional observations from a re-analysis of the deposited data

Results flagged for a closer look

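Ammecr1, a gene on the X chromosome, was the only gene called in opposite directions in both pairs. Its log2 difference, knockout minus wild type, was -1.04 in unstimulated cells (8.76 in wild-type and 7.72 in knockout cells) and 1.14 after LPS (7.24 and 8.38). Whether the effects differ was not tested.

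Probe sets that the annotation does not list were left out of the gene results. Of 2214 such probe sets above the floor on an unstimulated array, 31 (1.40%) were at least 2-fold higher in knockout cells and 22 (0.994%) lower. The 2 that were at least 4-fold higher are given here without a gene name. One was at the floor in wild-type cells and at a log2 signal of 9.84 in knockout cells, and at 7.87 and 10.24 after LPS. Another was at the floor in wild-type and at 9.15 in knockout cells, and at 8.06 and 8.38 after LPS.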

How the results depend on the processing

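Calls varied in number with floor and scaling. A floor at the 50th percentile gave 77 higher and 105 lower genes, no floor 95 and 125, and the 75th percentile 11 and 17, with 13 called in both pairs. Scaling on the poly-A controls gave 69 higher and 56 lower, so that 55.2% of calls were higher, against 34.7% as deposited, and it moved the median of all genes to 0.09. Quantile normalization gave 37 and 57, and median scaling 32 and 64. Of the 95 calls, 26 (11 higher and 15 lower) held under every scaling and floor, and 12 held also when probe sets were averaged or shared ones left out: Adat2, Car1, Col5a1, Egr1, Glo1, Ighg3, Lactb, Lipg, Olfml2b, Prg2, Ralgapb and Xpa. Without shared probe sets 19 genes were called in both pairs, and Dusp16 (-0.27), Trim34a (-0.65) and A930005H10Rik (0.23) changed sign. Another 20 of the 95 genes were no longer measured there. The median of the eosinophil, basophil and mast cell list was -0.34 with the floor at the 50th percentile, where more dim members count as measured. The 3 medians of miR-125 targets stayed between -0.01 and 0.12 and were on both sides of 0. Dim signals and 1 array per group limit all of these values. No paired analysis was possible because each group has 1 array.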

Other observations

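Several other genes were called in unstimulated cells and have not been described; they were chosen after their values were seen. Lactb, a mitochondrial protease-like protein, had log2 signals of 9.93 in wild-type and 8.67 in knockout cells, Xpa, a protein of nucleotide excision repair, 9.76 and 8.66, and Ralgapb, a subunit of the complex that inactivates Ral GTPases, 9.80 and 8.71. In the LPS pair their differences were -0.34, -0.10 and -0.03. Itga6, the integrin chain that binds laminin, had 9.01 and 7.80, and Cd1d1, which presents lipid antigens to natural killer T cells, 9.26 and 8.25, with a further probe set at -0.60. Mtss1, an actin-binding protein, had 8.52 and 7.01, and its 4 further probe sets ranged from -0.86 to -0.24. Rab44, a large Rab GTPase on chromosome 17, had 10.87 and 9.82, and 10.67 and 9.83 with LPS. Sirt6, a deacylase of chromatin, was at least 2.14-fold lower and was called in the LPS pair as well (8.27 and 7.10). On the higher side Bud23, a ribosomal RNA methyltransferase, had 9.64 and 10.67, Slc7a4, an amino acid carrier relative, 7.68 and 8.83, and Hace1, a ubiquitin ligase, 7.03 and 8.14, and none of these 3 was called in the LPS pair.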
